A study of Rattus norvegicus with 8 samples.

Results

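Immediate-early genes are switched on within minutes of a signal at the cell surface, without new protein synthesis, and many of their products are transcription factors. Fos and Jun proteins pair to form the AP-1 factor, Egr1 and Nr4a1 bind DNA by zinc fingers, and Atf3 is a related leucine-zipper protein that is induced by stress and often acts as a repressor. In the intestine such genes answer growth factors, wounding and bacterial products, and they can also be induced while a tissue is being removed. The 10 genes listed here were Atf3, Fos, Fosb, Jun, Junb, Egr1, Ier3, Dusp1, Nr4a1 and Tnfrsf12a. They were picked by name, with earlier results of these data known. Their probes were found through the transcript identifier of each spot on the array. Fosb had no probe matched to its symbol. For each of the other 9, 1 probe was tested (1 to 10 spots per array). All 9 were well above background in all 16 rats and were among the 19899 genes tested.

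The samples were a 5 mm piece from the middle of the colon of 16 female Wistar rats, 6 weeks old, fed for 3 weeks with a reference diet (REF group), a cocoa diet (C10), a cocoa fiber diet (CF) or an inulin diet (I), with 4 rats in each group. The CF diet carried the fiber of the cocoa diet with few of its polyphenols, and inulin is a soluble, fermentable fiber. Each of 8 two-colour arrays held the RNA of 2 rats on different diets, with dyes balanced within each diet (2 rats in Cy5, 2 in Cy3). Arrays 1 to 4 held all the C10 rats and arrays 5 to 8 all the I rats; the REF and CF rats were spread over both sets. A whole piece of colon was measured, so that fewer cells of a type and less RNA per cell cannot be told apart. Values are log2 signals after normalization, and a difference of 1 on this scale is a 2-fold difference.

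The markers of the colon epithelium were well above background in all rats (8 of 8), as were those of smooth muscle (8 of 8) and fibroblasts (7 of 7). One rat stood apart: in C10 rat 1 the mean log2 signal of the smooth muscle markers was 11.51, against 13.07 to 14.06 in the other 15 rats, and that of the striated muscle markers was 7.21, against 8.14 to 8.77. Its macrophage markers were also below the other rats (8.94, against 9.28 to 10.07), and its endothelium markers slightly above them (8.81, against 8.47 to 8.73). The B cell markers ranged from 6.35 to 10.05 over the rats, with high and low rats in every group. For the genes and lists whose C10 values were large or passed a threshold, values are therefore also given without C10 rat 1.

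Atf3 separated the REF group from most rats on the other diets. Its log2 signal was 11.87, 11.86, 11.56 and 11.45 in the 4 REF rats. It was 9.53, 10.87, 9.96 and 9.35 in the C10 rats, 10.06, 9.69, 10.41 and 11.75 in the CF rats, and 10.55, 9.85, 9.71 and 9.89 in the I rats. All C10 and all I rats lay below all REF rats, and CF rat 4 was the only one of the 12 rats on the other diets inside the REF range. The group means followed the order REF (11.69 ± 0.209, SD, n = 4), CF (10.48 ± 0.898), I (10 ± 0.376) and C10 (9.93 ± 0.679). Neighbours in this order did not differ beyond their spread by the two-sided exact permutation test of 4 rats against 4, whose smallest possible p is 0.0286: p was 0.0857 for CF against REF, 0.4 for CF against I and 0.857 for C10 against I.

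Atf3 was down-regulated in the C10 group, by -1.65 on the log2 scale (SE 0.35, 3.14-fold, limma adjusted p = 0.0458, exact permutation p = 0.0286). It was the only one of the 9 genes called in this comparison, a call being an adjusted p below 0.05 and at least a 2-fold difference; of all genes, 0.196 % were called. Without C10 rat 1 the difference was -1.33 and the limma adjusted p was 0.113, so the call was lost. It was also lost when any one of C10 rats 3 and 4, REF rats 1, 2 and 4, CF rats 1 and 3, or I rats 1, 3 and 4 was left out, and it was kept in the other 5 of 16 such fits. In both arrays that paired the 2 diets, the C10 rat was lower, by -2.34 and -0.98.

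In the I group the Atf3 difference from REF was -1.76 (SE 0.35, 95% interval -2.52 to -1.0, exact permutation p = 0.0286), and its limma p of 0.0002 ranked 4 among all genes. After adjustment over all genes limma gave 0.522, and no gene was called in this comparison (0 %). The I rat was lower in both arrays shared with a REF rat, by -1.85 and -1.57. In the CF group the difference was -1.18 (95% interval -2.00 to -0.36, limma adjusted p = 0.685), again with no gene called (0 %). It was -1.99 on arrays 1 to 4 and -0.43 on arrays 5 to 8, where CF rat 4 lay. The mean of the C10, CF and I groups differed from REF by -1.53 (SE 0.30, limma adjusted p = 0.171), with 0 % of genes called. The C10, CF and I comparisons share the 4 REF rats and are not independent of each other.

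**Figure D1:**
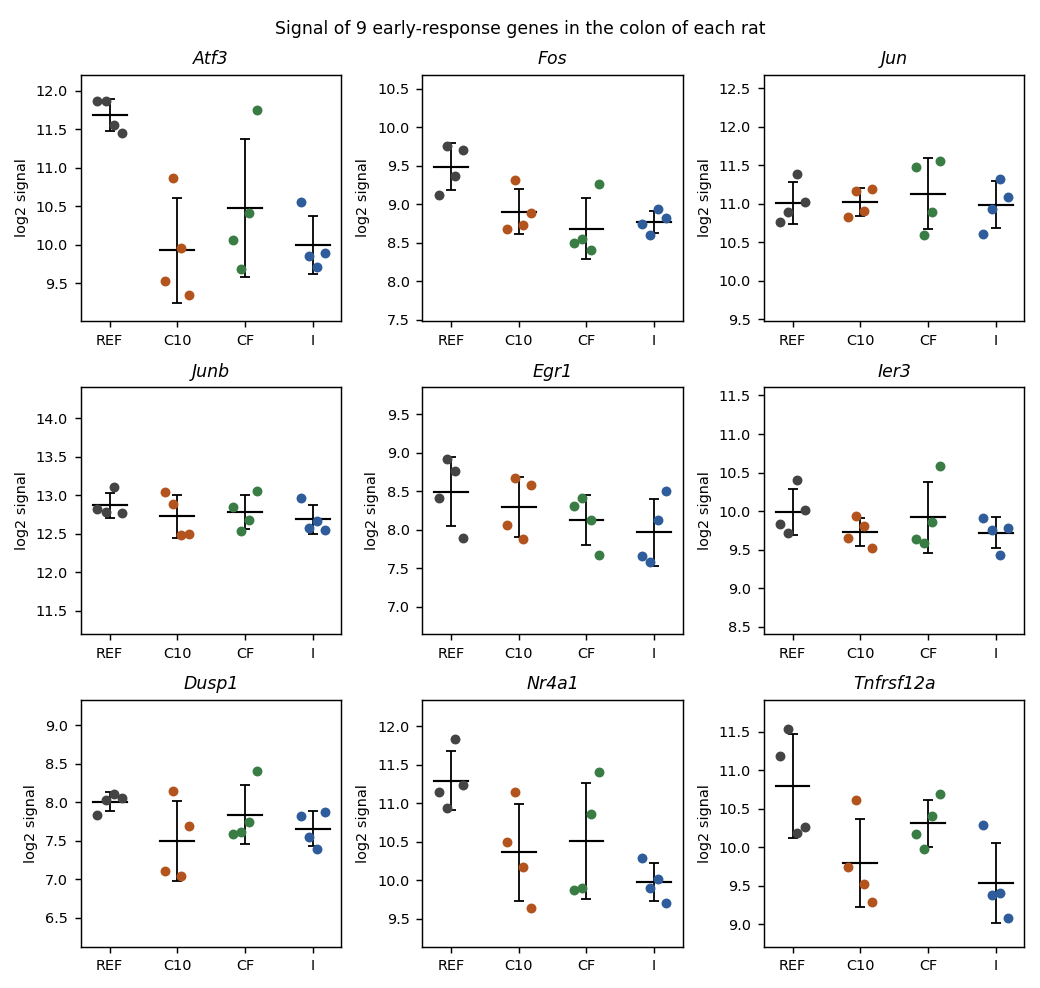
Log2 signal (vertical axis, the same span of 3.2 units in every panel) of the 9 genes in each rat, by diet (horizontal axis); points are rats in order of their number, horizontal lines are means and bars are SD (n = 4). Atf3 lies above 11.4 in the 4 REF rats and below 11 in all others except CF rat 4 at 11.75. Jun, Junb, Egr1, Ier3, Dusp1 and Tnfrsf12a overlap between all groups, and Fos and Nr4a1 between all except I and REF.

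Of the other transcription factors, Fos and Nr4a1 each lay below all REF rats in 10 of the 12 rats on the other diets, Junb in 7, Egr1 in 4 and Jun in 2. These counts were not made for all genes, so that they only describe the 5 genes. Fos, the partner of Jun in AP-1, had log2 signals of 9.12, 9.76, 9.37 and 9.71 in the REF rats, 8.68, 9.32, 8.73 and 8.89 in C10, 8.50, 8.55, 8.41 and 9.27 in CF, and 8.74, 8.60, 8.94 and 8.82 in I. The 4 I rats were all below the REF rats, and in each of C10 and CF 3 of 4 were. The differences from REF were -0.50 (SE 0.15) in C10, -0.73 (SE 0.16) in CF and -0.72 (SE 0.15) in I, with limma adjusted p of 0.123, 0.685 and 0.522. Fos was thus not called in any group, although its unadjusted limma p ranked 12 among all genes in both CF and I. In CF the Fos difference was -0.92 on arrays 1 to 4 and -0.70 on arrays 5 to 8. Without C10 rat 1, the difference in C10 was -0.35 (limma adjusted p = 0.314).

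Nr4a1 encodes an orphan nuclear receptor that is induced in epithelial and immune cells. Its log2 signal was 11.15, 10.94, 11.83 and 11.24 in the REF rats and 10.29, 9.90, 10.01 and 9.70 in the I rats, with no overlap. In C10 it was 10.49, 11.14, 10.17 and 9.64, and in CF 9.87, 9.90, 10.86 and 11.40, so that C10 rat 2 and CF rat 4 reached the REF range. The difference from REF was -1.43 in I (SE 0.30, 2.69-fold, limma adjusted p = 0.522, exact permutation p = 0.0286), -0.68 in C10 (SE 0.30, limma adjusted p = 0.262) and -0.64 in CF (SE 0.32, limma adjusted p = 0.800). On arrays 7 and 8 the I rat was lower than the REF rat by -1.82 and -1.53.

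Jun, Junb and Egr1 differed from REF by -0.36 to 0.20 in the 3 groups, and every 95% interval held 0. Junb, an AP-1 protein that opposes some actions of Jun, had the narrowest intervals, -0.36 to 0.20 in C10, -0.33 to 0.27 in CF and -0.46 to 0.09 in I. Differences of 2-fold lay outside the intervals of all 3 genes. Egr1, a zinc finger factor driven by serum and growth factor signals, had its lowest mean in I (7.97 ± 0.436, SD, n = 4) and its highest in REF (8.50 ± 0.454), and these groups overlapped (exact permutation p = 0.143).

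The remaining genes encode a receptor, a phosphatase and a survival factor. Tnfrsf12a is the receptor of the cytokine TWEAK and is induced by growth factors and injury. Its log2 signal was 11.19, 11.54, 10.19 and 10.27 in the REF rats, 9.75, 10.61, 9.53 and 9.29 in C10, 10.17, 9.98, 10.41 and 10.69 in CF, and 10.29, 9.38, 9.41 and 9.08 in I. The REF rats fell in 2 levels, with rats 1 and 2 (arrays 1 and 2) about 1 unit above rats 3 and 4 (arrays 7 and 8). The difference from REF was -1.05 in C10 (SE 0.27, limma adjusted p = 0.0787), -1.17 in I (SE 0.27, limma adjusted p = 0.594) and -0.45 in CF (SE 0.29, limma adjusted p = 0.873). In CF it turned from -1.29 on arrays 1 to 4 to 0.32 on arrays 5 to 8. In I, within arrays 5 to 8, it was -0.69, and in C10, within arrays 1 to 4, -1.57. Without C10 rat 1 it was -0.93 in C10 (limma adjusted p = 0.152).

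Dusp1, a phosphatase that switches off MAP kinases, differed from REF by -0.42 in C10, -0.12 in CF and -0.39 in I (limma adjusted p = 0.323, 0.964 and 0.906), and by -0.21 in C10 without C10 rat 1. In 3 of 4 rats of each of these groups it lay below all REF rats, while C10 rat 2 (8.15) and CF rat 4 (8.41) lay above them. Ier3, a stress-induced regulator of cell survival, differed by -0.16, -0.09 and -0.39, and its highest signal in any rat was again that of CF rat 4 (10.58).

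**Figure D2:**
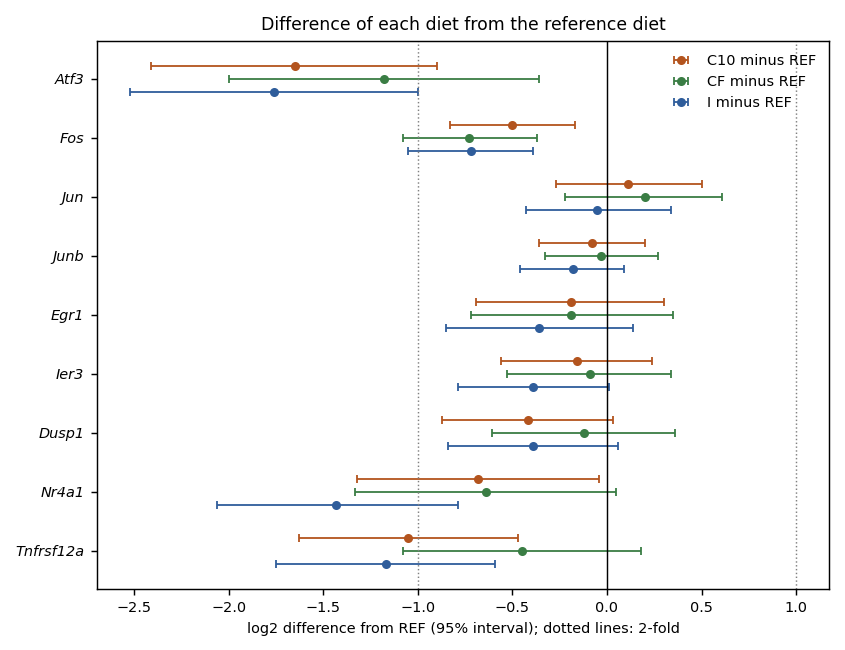
Difference of the C10, CF and I groups from REF on the log2 scale (horizontal axis) for the 9 genes (vertical axis); points are limma estimates and bars their 95% intervals, n = 4 rats per group, and dotted lines mark 2-fold. The intervals of Atf3 and Fos lie below 0 in all 3 groups, and those of Jun, Junb, Egr1, Ier3 and Dusp1 hold 0 in all 3.

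The 9 genes were chosen with earlier results of these data known. The study itself lists Atf3 and Tnfrsf12a as at least 2-fold lower in C10. Several of the genes were also correlated within diets, as given below. Counts and medians over them therefore describe these genes and are not a test. Counted over the 9 genes, 4 had an unadjusted limma p below 0.05 with a lower signal in C10 (Atf3, Fos, Nr4a1 and Tnfrsf12a), against 8.33 % of all genes. Without C10 rat 1, the unadjusted limma p of Nr4a1 was 0.084 and those of the other 3 stayed below 0.05, against 7.6 % of all genes. The same 4 did so in I, against 2.74 % of all genes, and Atf3 and Fos did so in CF, against 3.21 %. For the mean of the 3 diets the count was again 4, against 4.84 %. None had an unadjusted p below 0.05 with a higher signal in these comparisons. The median difference of the 9 was -0.42 in C10, -0.19 in CF and -0.39 in I, whereas that of all genes was 0.013, 0.013 and 0.006. All 4 rats lay below all 4 REF rats for 1 of the 9 genes in C10 (Atf3; 2.03 % of all genes), for none in CF (0.774 %) and for 3 in I (Atf3, Fos and Nr4a1; 0.900 %).

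The study itself tested its genes by rank product. A rank product run here on the normalized signals, with 100 permutations, called more of these genes than limma. A call was at least 2-fold, with an estimated false positive share below 0.05. In C10 it called Atf3 and Tnfrsf12a, with 0.683 % of all genes called. In CF it called Atf3 (0.246 % of all genes), and in I it called Atf3, Nr4a1 and Tnfrsf12a (0.151 %). It ranks differences between pairs of rats and leaves out the array and the dye.

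The diets were then compared with each other. None of the 9 genes was called in C10 against CF (0.101 % of all genes), in C10 against I (0.161 %) or in CF against I (0 %). At an unadjusted limma p below 0.05, Tnfrsf12a differed between C10 and CF (-0.60, SE 0.27; 13.5 % of all genes), Nr4a1 between C10 and I (0.75, SE 0.32; 12.2 %), and Nr4a1 and Tnfrsf12a between CF and I (0.78, SE 0.30, and 0.72, SE 0.27; 2.83 %). The limma adjusted p of these 4 differences were 0.351, 0.367, 0.9998 and 0.9998. For Atf3 the difference was -0.47 (95% interval -1.23 to 0.28) between C10 and CF, 0.11 (-0.71 to 0.93) between C10 and I, and 0.58 (-0.17 to 1.34) between CF and I. These intervals still hold differences near 2-fold.

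The second question was whether Atf3 moves with the rest among rats on the same diet. The diet and dye means were removed from each gene, and the deviation of Atf3 was set against the mean deviation of the other 8 genes over the 16 rats. Pearson's r was 0.857 (permutation p = 0.00548, rats permuted within a diet) and Spearman's rho was 0.738 (permutation p = 0.00637). These permutations, and those of the correlations below, left out the array. They treat rats that share an array as independent, although the limma fit estimated a correlation of 0.421 within an array. C10 rat 2 and CF rat 4 had the largest deviations: Atf3 was 0.95 and 1.26 above its diet and dye mean, the other genes averaged 0.46 and 0.40 above theirs, and 9 of 9 and 8 of 9 genes were above. Without these 2 rats, the farthest from the median of Atf3, r was 0.604 (permutation p = 0.0799), so that the relation past the threshold rests on them. On arrays 1 to 4 r was 0.862 (8 rats, exact permutation p = 0.156), and on arrays 5 to 8 it was 0.847 (8 rats, exact permutation p = 0.0312). The r per set of arrays, and every r without 2 rats here and below, used the diet and dye means of all 16 rats. These means were not fitted again for the rats kept. The deviations kept in a diet were thus not centred at 0, and such an r can hold differences between diets.

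Of the 36 pairs among the 9 genes, 31 had an r above 0 and 6 had a permutation p below 0.05 after adjustment over the 36. Among them were Atf3 with Tnfrsf12a (r = 0.724, rho = 0.732, adjusted p = 0.009 by permutation of r), with Nr4a1 (r = 0.781, rho = 0.615, permutation adjusted p = 0.0459) and with Ier3 (r = 0.745, rho = 0.600, permutation adjusted p = 0.0459). Without the 2 rats, r was 0.715 for Tnfrsf12a (permutation p = 0.00367), 0.530 for Nr4a1 (permutation p = 0.110) and 0.499 for Ier3 (permutation p = 0.102). Of these 3 pairs, that of Atf3 and the TWEAK receptor alone kept a permutation p below 0.05 without C10 rat 2 and CF rat 4. With Fos the r of 0.660 (rho = 0.379, permutation adjusted p = 0.190) dropped to 0.0642 without these rats, and with Dusp1 it went from 0.696 (rho = 0.465, permutation adjusted p = 0.154) to 0.237. Egr1 had an r of -0.225 with Atf3 (rho = -0.162, permutation adjusted p = 0.537). Of all 19898 other genes, 3.81 % had an r above 0.5 with Atf3. The counts of 31 and 6 pairs were not made for pairs of all genes, so that they have no share beside them.

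The other 3 pairs joined Nr4a1, Junb and Ier3 with each other. They were Ier3 with Nr4a1 (r = 0.811, rho = 0.697, permutation adjusted p = 0.0126), Junb with Nr4a1 (r = 0.783, rho = 0.747, permutation adjusted p = 0.0143) and Junb with Ier3 (r = 0.662, rho = 0.503, permutation adjusted p = 0.0407). For each pair r was 0.681, 0.798 and 0.675 without the 2 rats farthest from the median of its first gene. By rank correlation none of the 36 pairs had an adjusted permutation p below 0.05, and the smallest was 0.063, for Atf3 with Tnfrsf12a. REF rat 3 was above its diet and dye mean for Nr4a1 (0.49), Ier3 (0.38) and Junb (0.30) but below it for Tnfrsf12a (-0.54) and Atf3 (-0.11).

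**Figure D3:**
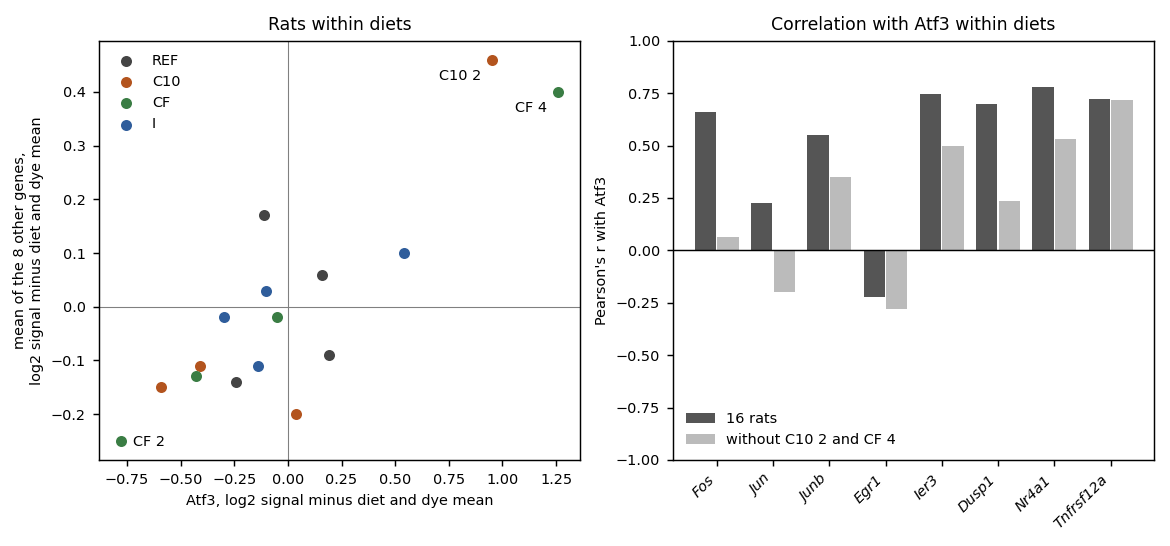
Left, deviation of each rat from its diet and dye mean for Atf3 (horizontal axis, log2) and for the mean of the other 8 genes (vertical axis, log2), coloured by diet; right, Pearson's r of each gene with Atf3 over 16 rats (dark bars) and without C10 rat 2 and CF rat 4 (light bars). The 2 rats lie at the upper right, and without them Tnfrsf12a keeps an r of 0.715 while Fos comes to 0.0642. The light bars use the diet and dye means of all 16 rats.

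The genes with a symbol most like Atf3 over the 16 rats, by Pearson's r of the deviations, were Gadd45g (0.891), Suox (0.864), Creld2 (0.849), Zfp52 (0.848) and Ccn2 (0.835). Over all 19898 other genes the median r with Atf3 was -0.0322. Of these 5, Ccn2, a matricellular growth factor, differed from REF by -0.77 in C10 (SE 0.45), -0.59 in CF (SE 0.49) and -0.93 in I (SE 0.45), with unadjusted limma p of 0.11, 0.252 and 0.0581. Gadd45g, a DNA damage and stress response gene, differed by 0.02, 0.10 and -0.39.

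Cell markers that moved with diet are given beside these values. In C10, 6 of 8 smooth muscle markers, 4 of 7 macrophage markers and 5 of 7 mast cell markers had an unadjusted limma p below 0.05 with a lower signal, as did 2 of 6 striated muscle markers, against the 8.33 % of all genes given above. Leaving out C10 rat 1 gave counts of 0 of 8, 4 of 7, 5 of 7 and 0 of 6, against 7.6 % of all genes. In CF and I the smooth muscle, macrophage and mast cell lists had no such marker. Of the mast cell genes, Hdc, Cma1 and Cpa3, the histamine-making enzyme and 2 granule proteases, were called (-1.09, -1.07 and -1.58; limma adjusted p = 2.54e-05, 0.0111 and 0.0135), and they were called without C10 rat 1 too (-1.19, -1.19 and -1.71). The summed signal of the mast cell markers was 1039 to 1349 in C10 and 1995 to 2277 in REF, and that of the smooth muscle markers 61580 to 296812 and 242137 to 528511. Their part in the C10 differences was not tested. Within diets, none of 9 marker lists had a mean correlated with Atf3 past the threshold: r lay between -0.127 and 0.382, and the smallest permutation p after adjustment over the 9 was 0.836.

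Promoters are shown for 3 genes: Nr4a1 and Tnfrsf12a, which were correlated with Atf3 within diets, and Junb, which was correlated with Nr4a1 but did not differ between diets. RefSeq holds, on the GRCr8 build, an entry in the table used here for 6 of the 10 listed genes; Atf3, Fos, Jun and Ier3 were not matched. The 250 bases before the start site follow, written 5′ to 3′, with capitals marking motifs that were found by letter match. The Nr4a1 stretch is chr7:134259888-134260137 (plus strand), that of Junb chr19:40080876-40081125 (plus strand) and that of Tnfrsf12a chr10:13213649-13213898 (minus strand).
Nr4a1: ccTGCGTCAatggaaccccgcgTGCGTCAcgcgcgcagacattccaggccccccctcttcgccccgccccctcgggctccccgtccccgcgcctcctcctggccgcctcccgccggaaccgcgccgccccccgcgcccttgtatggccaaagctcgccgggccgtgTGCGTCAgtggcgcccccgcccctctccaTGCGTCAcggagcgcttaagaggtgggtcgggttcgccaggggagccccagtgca
Junb: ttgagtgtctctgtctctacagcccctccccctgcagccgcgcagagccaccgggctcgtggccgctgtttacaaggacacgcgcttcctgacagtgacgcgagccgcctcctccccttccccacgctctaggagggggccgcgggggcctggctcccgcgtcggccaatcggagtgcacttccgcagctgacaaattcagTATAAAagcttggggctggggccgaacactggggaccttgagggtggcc
Tnfrsf12a: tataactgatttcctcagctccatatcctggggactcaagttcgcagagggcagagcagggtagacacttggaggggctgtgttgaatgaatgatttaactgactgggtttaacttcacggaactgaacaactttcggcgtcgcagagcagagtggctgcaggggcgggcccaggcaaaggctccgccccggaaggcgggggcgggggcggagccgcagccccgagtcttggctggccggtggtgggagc

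The motifs searched were the cAMP response element (TGACGTCA), the AP-1 element (TGANTCA), an AP-1-like element (TGCGTCA), the TATA box (TATAAA) and the CArG box, the site of serum response factor. The first 3 and the CArG box were searched on both strands and the TATA box on the gene's strand. A CArG box can hold the letters of a TATA box, but no promoter of the 6 genes with an entry held both motifs. The capitals in Nr4a1 are 4 copies of TGCGTCA, held at least once by 1.66 % of 33469 promoters of this length. The 1 promoter among them with 4 or more copies is that of Nr4a1 itself. The capitals in Junb are a TATA box at 49 to 44 bases before the start site, a motif held by 8.06 % of promoters. Tnfrsf12a had none of these letters in the window. Egr1 had 2 CArG boxes (1.5 % of promoters hold one) and Dusp1 had 1 cAMP response element (1.59 %), while Fosb, which was not measured, had none; no member with an entry had an AP-1 element (6.34 %). A letter match describes the sequence and does not show that a factor is bound there.

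Related genes were read from lists of the same pathway. Of 33 other immediate-early genes, 32 were tested, and with all 16 rats none was called in any comparison with REF. Lower signals with an unadjusted limma p below 0.05 were found for 5 in C10, 4 in CF and 6 in I, and higher ones for 3, 1 and 0. Of all genes, 8.33 %, 3.21 % and 2.74 % had such a lower signal in these groups. Such a higher signal was found for 8.79 %, 3.18 % and 2.97 % of all genes. The pair with the smallest p in C10 were Rgs2, an inducible brake on G protein signals (-0.85, SE 0.19, limma adjusted p = 0.0522), and Hbegf, a ligand of the epidermal growth factor receptor (-0.53, SE 0.14, limma adjusted p = 0.0854). With C10 rat 1 left out they were -1.09 and -0.41 (limma adjusted p = 0.0189 and 0.184), so that Rgs2 was called. The other gene of the list called without that rat was Sgk1, a kinase induced by serum and steroids (1.04, SE 0.20, limma adjusted p = 0.0359), which differed by 0.59 (limma adjusted p = 0.279) with all rats and was named after its values were seen. Rgs2 and Hbegf, with all rats, were also below 0 in CF (-0.62 and -0.41) and I (-0.64 and -0.42). The list's median was -0.01 in C10, -0.08 in CF and -0.21 in I.

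Among the 8 Dusp1 relatives tested, none in C10 or CF and 2 in I had an unadjusted limma p below 0.05, and none was called. Both in I were lower, as were 2.74 % of all genes in I. Of 15 leucine-zipper genes that pair with Fos, Jun or Atf3 or resemble them, none was called; Creb1, the activator that binds cAMP response elements, differed by 0.35 in C10 (SE 0.10, limma adjusted p = 0.0906) and Crem, its relative, by -0.34 (SE 0.13, limma adjusted p = 0.193); without C10 rat 1 these were 0.30 and -0.31. None of 14 genes of the MAP kinase and serum response factor inputs was called, with 3 higher and none lower in C10 at an unadjusted limma p below 0.05. Of all genes, 8.79 % were higher and 8.33 % lower in C10 by that threshold.

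The stress gene lists held no called gene. Of 16 genes of the integrated stress response and DNA damage, a program that includes Atf3, at an unadjusted limma p below 0.05 there were 4 higher and none lower in C10, 1 higher in CF and 1 higher in I, where 8.79 %, 3.18 % and 2.97 % of all genes did so. The count in C10 was also 4 higher and none lower when C10 rat 1 was left out, against 8.17 % and 7.6 % of all genes. Gadd45b and Gadd45a, which arrest growth after stress, had the smallest p in C10, with differences of 0.90 (SE 0.21, limma adjusted p = 0.0581) and 0.41 (SE 0.11, limma adjusted p = 0.0906), opposite in sign to Atf3. They were 0.86 and 0.39 without C10 rat 1 (limma adjusted p = 0.111 and 0.166). Of 8 heat shock genes tested, Hspb1 differed by -0.69 in C10 (SE 0.25, limma adjusted p = 0.178), which came to -0.27 without C10 rat 1, and Hspe1, whose unadjusted p was 0.0693, by -0.18 (SE 0.09, limma adjusted p = 0.336). In I, 2 of the 8 had an unadjusted limma p below 0.05, both higher: Hsph1 (0.38, SE 0.13) and Hspa8 (0.32, SE 0.12), named after their values were seen, with limma adjusted p of 0.831 and 0.846. In the TWEAK pathway 7 genes were tested beside the receptor, and none was called: the ligand Tnfsf12 differed by -0.23 in C10 (SE 0.09, limma adjusted p = 0.202; -0.17 without C10 rat 1), 0.11 in CF and 0.03 in I, and the kinase Map3k14 by 0.21 in C10 (SE 0.12, limma adjusted p = 0.414).

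**Figure D4:**
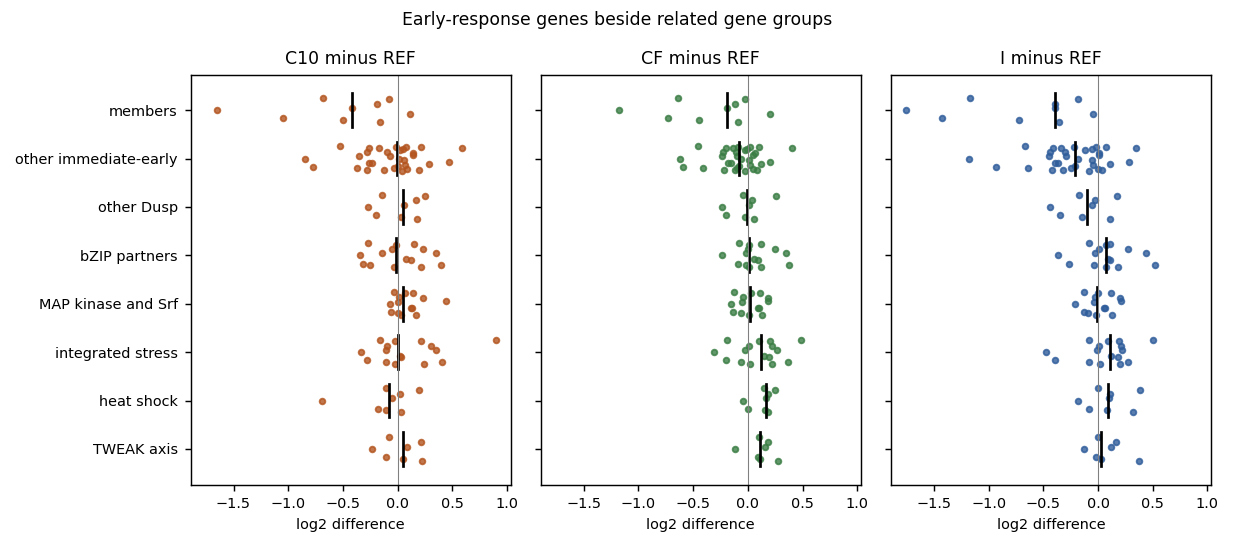
Difference from REF on the log2 scale (horizontal axis) of each gene of the 9 members and of 7 related lists (vertical axis), in C10, CF and I; points are genes and black lines list medians. The members reach -1.65 in C10, -1.18 in CF and -1.76 in I, while single genes of the related lists also lie far from 0. The members' medians are -0.42 in C10, -0.19 in CF and -0.39 in I. Those of the related lists lie from -0.08 to 0.05 in C10, -0.08 to 0.17 in CF and -0.21 to 0.1 in I. The members and lists were chosen with earlier results of these data known.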

How the data were processed

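The deposited files are the output of Agilent Feature Extraction 10.7.3.1 (version from the submitters' processing notes), of which the median intensity and local background intensity of each spot in each dye were used; the deposited processed intensities entered 1 alternative. A normalized series table was not used here, since nothing ties its columns to the arrays. In limma 3.58.1 (R 4.3.3), the steps were normexp (offset 50), spatial loess (span 0.4), intensity loess (span 0.3) and Aquantile, following the study's methods, which give no offset or span. Spots of a probe were averaged, a gene was represented by its brightest probe, and only probes well above background in 4 or more of the 16 rats entered. Diet and dye were fitted with the array as a block (correlation 0.421, duplicateCorrelation), with Benjamini-Hochberg adjustment over 19899 genes. The pipeline was tested on simulated data. Labels give each rat 1 array and 1 dye, although the methods speak of dye swaps for each sample; p-values measure the spread between rats. All arrays shared 1 slide and 1 scan. Their number limits the precision; no spot was saturated (0). Correlations used 100000 permutations in Python 3.11.15. Related genes named are those called in any comparison or, for the early-response, leucine-zipper, stress and TWEAK lists, the 2 with the smallest p in C10 against REF. The members and lists were chosen with earlier results of these data known. Alternatives changed the background correction, the normalization, the filter, the probe rule, the terms of the model, the test and the rats included.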

Additional observations from a re-analysis of the deposited data

Results flagged for a closer look

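In 36 sets of 4 rats (9 genes in 4 diets), 2 held a rat set far from the other 3 by Dixon's test at the 95% level; chance alone gives about 1 in 20. Fos in CF rat 4 was 9.27, against 8.41 to 8.55 in the other CF rats. Junb in REF rat 3 was 13.11, against 12.77 to 12.82 in the other REF rats.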

How the results depend on the processing

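The 4 rats per group limit these results. The values of related lists and cell markers without C10 rat 1 were chosen after seeing the data. Atf3 lay below REF in all 111 other fits against REF (C10, CF, I and their mean), but its call in C10 was kept in 10 of 27 other limma fits, whose adjusted p ranged from 0.00431 to 0.286. It was lost, with 0 members called, with processed signals (-1.62), no filter on dim probes (-1.65), no dye term (-1.69), no array block (-1.76), position on the slide as a term (-1.53) and log-ratios within arrays (-1.51); the cause was not tested. Without normalization between arrays 2 members were called (Atf3 and Tnfrsf12a). All genes called in C10 numbered 39, but 17 without the array block, 21 without the dye term, 68 without the offset, 93 with processed signals, 136 by rank product and 0 from log-ratios. Leaving out 1 rat gave 17 (REF rat 2) to 95 (REF rat 3), with 65 without C10 rat 1; the 20 genes called in C10 against CF fell to 0 without CF rat 1 or CF rat 2. Rank product called 2 members in C10, 1 in CF (Atf3, -1.21) and 3 in I (Atf3, -1.69). Leaving out 1 rat at a time gave Atf3 -2.02 to -1.33 in C10 with 0 to 2 members called, and -1.72 to -1.34 for the mean of the diets with 0 to 1 called (Atf3, adjusted p = 0.014 by limma, without CF rat 4). Atf3 between C10 and I turned to -0.07 without the array block and ranged from -0.20 to 0.38 over left-out rats; between CF and I it ranged from -0.02 to 0.88.

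Of 888 other fits of the other members against REF, 17 changed sign, none beyond 0.12 in size. Junb turned to 0.01 in C10 with processed signals and with log-ratios, and in CF to 0.01 without normalization between arrays and 0.06 with log-ratios, where Egr1 in CF was 0.06. Over left-out rats, Junb ranged from -0.19 to 0.03 in C10, -0.11 to 0.11 in CF and -0.17 to 0.04 for the mean, Egr1 from -0.38 to 0 in C10, Ier3 from -0.35 to 0.07 in CF, and Jun from -0.15 to 0.12 in I and 0 to 0.23 for the mean. The correlation of Atf3 with the other members was 0.76 to 0.91 over left-out rats and 0.78 to 0.92 over the other 6 settings, with a permutation p below 0.05 in each. The setting that kept the diet means can hold differences between diets. Removing array means ties the rats that share an array, yet they were permuted as separate values. The log-ratios left 8 values after diet and dye were fitted. The p-values of these settings thus do not measure a relation among independent rats within diets. Rats were not paired by replicate number, because the labels give the diets no shared replicate numbers. The rats that share an array were paired by the array block and by the log-ratios within arrays, whose values stand above.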

Other observations

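Among the other immediate-early genes, 2 with values that stood out in I were chosen after their values were seen. Jund, an AP-1 protein, differed from REF by -0.45 (SE 0.10, limma adjusted p = 0.594), with -0.03 in C10 and -0.24 in CF. Ccn1, a matricellular protein of the same family as Ccn2, differed by -1.18 (SE 0.45, limma adjusted p = 0.831) in I, 0.20 in C10 and -0.15 in CF. Compared directly, Jund was 0.42 higher in C10 than in I (SE 0.11, limma adjusted p = 0.125) and Ccn1 1.38 higher (SE 0.48, limma adjusted p = 0.275). Between CF and I the differences were 0.21 (SE 0.10) and 1.03 (SE 0.45), both with a limma adjusted p of 0.9998, and none of the 4 passed the threshold.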
